A study of Mus musculus with 6 samples.

Results

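Mitochondria carry their own ribosomes, and these are served by soluble factors that start a protein chain, lengthen it, release it and free the ribosome for the next round. The chains made there are hydrophobic subunits of the respiratory chain, and they are handed to an insertase of the inner membrane while they are still being made. CRIF1, encoded by *Gadd45gip1*, is a protein of the large mitochondrial ribosomal subunit that works at this point of hand-over. The 10 genes described here encode the factors that surround that step. They are the initiation factors *Mtif2* and *Mtif3*, the elongation factors *Tufm*, *Tsfm* and *Gfm1*, the release factor *Mtrf1*, the recycling factors *Mrrf* and *Gfm2*, the insertase *Oxa1l*, and *Lrpprc*, whose product stabilizes mitochondrial messenger RNAs. They were chosen by gene symbol for these roles, and all 10 were found among the 23183 symbols of the series.

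The series holds 6 RNA-seq libraries of cerebral microvessels from C57BL/6 mice, 3 labelled wild type (WT) and 3 labelled knockout (TEKCRIF1 KO). Each library stands for 1 mouse, so the spread between libraries is that between animals. WT mice were TEK-cre, Crif1 +/+ and KO mice were TEK-cre, Crif1 flox/flox, so the Cre transgene was present in both groups and no treatment is labelled. The age of these animals is not given in the sources used here. Cre was driven by Tek, a gene of endothelial cells, whereas the RNA came from whole microvessel fragments, so transcripts of cells in which Tek is not active were part of every value. In such bulk samples, fewer cells of a type and less RNA per cell cannot be told apart.

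The sequence before the start sites was read for motifs of factors that are known to act on nuclear genes for mitochondria. RefSeq promoters (GRCm38.p6) were matched for 9 of the 10 genes, all but *Mtif3*, and the 250 bases before the start were searched on both strands. The NRF-1 motif, GCGCA followed by any base and then GCGC, was found in 2 of the 9 and in 3.74% of 32851 promoters of the same length. The ETS core CCGGAA was found in 2 of the 9 and in 3952 of all 32851, and the Sp1 core GGGCGG in 1 of the 9 and in 32.7% of all. No motif was common to the group. The windows with the NRF-1 and ETS matches are given, 5′ to 3′ on the gene's strand, with the match in capitals, as the only members of the 9 with a site-like sequence for these 2 kinds of factor. A match is a description of letters and shows no binding.
Gfm2, NRF-1 motif, chr13:97137884-97137913: gccgagtggaGCGCAAGCGCcgcacagcag
Oxa1l, NRF-1 motif on the other strand, chr14:54360808-54360837: agttctgagtGCGCGTGCGCgagagtaagt
Mrrf, ETS core on the other strand, chr2:36136364-36136389: ggattgttatTTCCGGccagagacag
Mtif2, ETS core on the other strand, chr11:29526377-29526396: gggaagctgcTTCCGGcggt

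The deleted gene was examined first. *Gadd45gip1* (chr8:84831522-84835482, plus strand, GRCm38) had 18.8, 15.3 and 16.5 FPKM in the WT libraries, against 10.8, 7.54 and 10.4 FPKM in the KO libraries. FPKM counts fragments per kilobase of exon, scaled to the mapped fragments of the library. Values of a group are given below in the order of the replicate numbers 1, 2 and 3. All 3 KO values lay under all 3 WT values, the direction the genotype labels give, and the KO mean was 56.7% of the WT mean. On the log2(FPKM + 1) scale the difference between KO and WT was −0.77 (SE 0.22; exact permutation p = 0.1; limma p = 0.00534, adjusted p = 0.841). The exact test is two-sided, here and below, and 0.1 is the smallest p that 3 libraries against 3 can give. The adjustment here and for every gene below is that of Benjamini and Hochberg over all 14247 genes tested.

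The libraries themselves differed in ways that touch the values below. The estimated depth ran from 8700000 to 11300000 fragments in WT libraries and from 6400000 to 11600000 in KO libraries, lowest in KO 2. Endothelial markers were present in all libraries, with *Cldn5*, a tight junction gene, between 420 and 703 FPKM. *Cdh5*, the endothelial cadherin, had 86.7 to 92.4 FPKM in WT libraries and 38.1 to 50.8 FPKM in KO libraries, without overlap (limma adjusted p = 0.841). It was the only one of the 7 endothelial markers without overlap, 2 of the 7 had an estimate above 0, and the sums of the 7 overlapped (876 to 1234 FPKM in WT and 764 to 1064 FPKM in KO). The summed level of 4 choroid plexus epithelium markers was 2887 to 3357 FPKM in WT libraries but 8816, 2968 and 10550 FPKM in the KO libraries, high in KO 1 and KO 3, and none of the 4 was at 0 in any library. The summed level of 6 astrocyte markers was 575 to 671 FPKM in WT libraries and 431 to 477 FPKM in KO libraries. For 4 fibroblast markers it was 1186 to 1778 FPKM in WT libraries and 784 to 1088 FPKM in KO libraries. Of single markers, 3 of 6 pericyte and 2 of 6 oligodendrocyte genes were lower in KO without overlap, next to 5.7% of all genes, but 1 gene of each list had an estimate above 0 and the sums of both lists overlapped between the groups. The KO libraries also stood apart in transcript length and GC content. The Spearman correlation of a gene's deviation from its mean with transcript length was −0.31 in KO 1, 0.293 in KO 2 and −0.149 in KO 3, against 0.0251 to 0.0544 in WT libraries. With GC content it was −0.132, −0.258 and −0.0199 in the KO libraries and 0.081, 0.313 and 0.152 in the WT libraries, without overlap. Both are described across 14167 genes, which are not independent replicates.

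Before the single genes, the outcome over the group can be stated. None of the 10 translation factor genes passed the test for a difference between KO and WT. At an adjusted limma p under 0.05 the count was 0 of 10, where 0.0% of all genes tested passed (0 of 14247), and at an unadjusted limma p under 0.05 it was again 0 of 10, where 5.88% of all genes passed (838 of 14247). The groups overlapped for all 10, whereas they did not overlap for 11.1% of all genes tested (5.37% higher and 5.7% lower in KO). The estimated difference was above 0 for 8 genes and below 0 for 2, *Mtif3* and *Tsfm*, where 49.2% of all genes tested had an estimate above 0. Its median over the group was 0.14 on the log2 scale, next to −0.0062 over all genes tested. Neither was stable to single libraries, with 6 genes above 0 and 4 below without KO 3, and a median of 0.036 without WT 1 and 0.052 without KO 3. All 10 genes had a mean above 1 FPKM in both groups, so none entered the test through one group alone. The adjusted p-values ran from 0.889 to 0.994. The 95% confidence intervals of the differences lay between −0.87 and 0.94 on the log2(FPKM + 1) scale. They were wider in some alternatives, with an upper bound of 1.07 for *Gfm2* and 1.13 for *Mtrf1* at a pseudocount of 0.1 and bounds of −1.11 for *Tsfm* and 1.17 for *Gfm2* without WT 1, so the values do not show that the groups are equal.

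**Figure D1:**
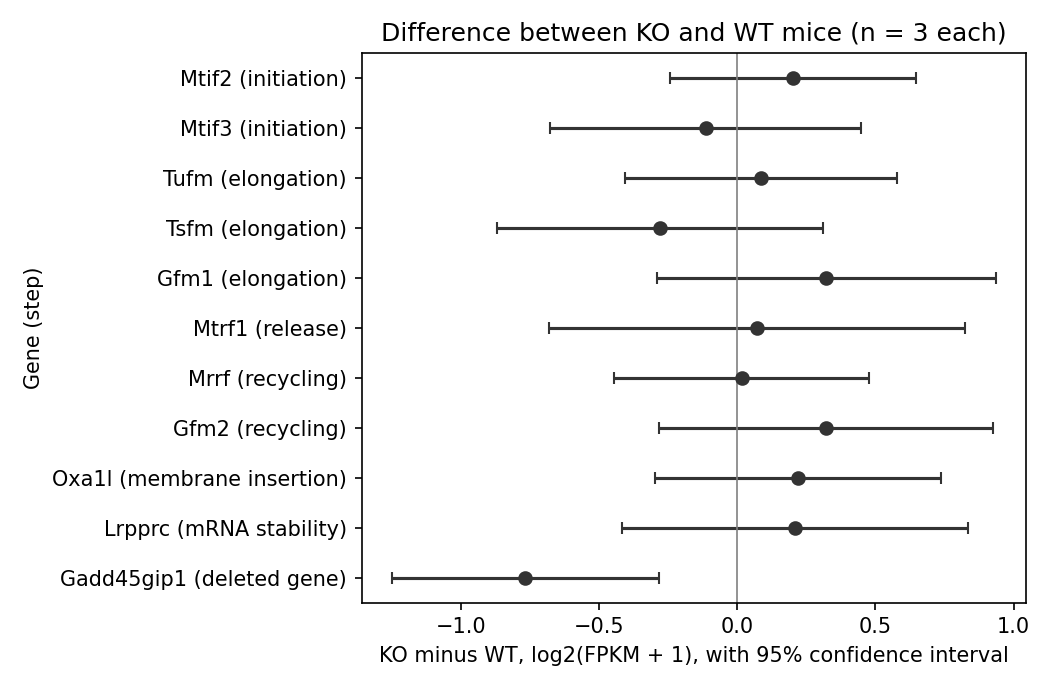
KO minus WT difference in log2(FPKM + 1) for the 10 translation factor genes and *Gadd45gip1*, with points for the limma estimate and bars for its 95% confidence interval (n = 3 libraries each). The bars of all 10 factors cross 0, while that of *Gadd45gip1* runs from −1.25 to −0.28.

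The initiation factors place the first, formylated methionyl tRNA and the messenger on the small mitochondrial subunit. *Mtif2* (chr11:29526408-29545279, plus strand, 14 exons in its longest coding transcript) encodes the factor that brings in the initiator tRNA. It had 12.01, 11.1 and 10.3 FPKM in the WT libraries, against 13.1, 14.3 and 11.7 FPKM in the KO libraries. WT 1 lay above KO 3, and the other KO values lay above all WT values. The means were 11.2 ± 0.835 (WT) and 13.02 ± 1.32 FPKM (KO; SD, n = 3 libraries a group), and the difference on the log2 scale was 0.20, with an interval from −0.24 to 0.65 (exact permutation p = 0.2). It was 0.091 with the trend on GC content removed. *Mtif3* (chr5:146951573-146963800, minus strand, 4 exons) encodes the factor that keeps the small subunit free for initiation. Its values were 4.03, 4.19 and 3.60 FPKM in the WT libraries, against 4.14, 3.36 and 3.23 FPKM in the KO libraries, so that KO 1 sat among the WT libraries. The difference was −0.11, with an interval from −0.68 to 0.45 (exact permutation p = 0.3), and it was −0.20 without KO 1 and −0.059 without KO 3, and −0.010 with the trends on GC content and length removed.

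The elongation factors act at every codon. *Tufm* (chr7:126487361-126490731, plus strand, 9 exons) encodes the mitochondrial EF-Tu, which delivers aminoacyl-tRNA to the ribosome, and it was the most abundant of the 10 transcripts. It had 26.7, 28.4 and 30.4 FPKM in the WT libraries, against 40.2, 24.5 and 28.1 FPKM in the KO libraries. KO 1 was the highest library and KO 2 the lowest, so the KO spread enclosed the WT libraries (28.5 ± 1.83 for WT and 30.9 ± 8.19 FPKM for KO; SD, n = 3 libraries a group). The difference was 0.087, with an interval from −0.41 to 0.58 (exact permutation p = 0.9), and it was −0.11 without KO 1 and 0.19 with the trend on GC content removed. *Tsfm* (chr10:127011572-127030840, minus strand, 5 exons) encodes EF-Ts, which recharges EF-Tu with GTP. Its level was 6.62, 12.3 and 7.99 FPKM in the WT libraries, against 8.36, 6.69 and 6.09 FPKM in the KO libraries. WT 2 was well above the other libraries, which overlapped. The difference was −0.28 (interval −0.87 to 0.31; exact permutation p = 0.5), and it was −0.050 without WT 2 and −0.45 without WT 1.

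*Gfm1* (chr3:67430096-67476529, plus strand, 18 exons) encodes EF-G1, which moves the ribosome along the messenger by a codon. It had 8.43, 8.62 and 7.32 FPKM in the WT libraries, against 6.60, 13.7 and 12.2 FPKM in the KO libraries. The KO libraries were split, with KO 1 the lowest of all libraries and the other 2 the highest. The means were 8.12 ± 0.704 (WT) and 10.8 ± 3.74 FPKM (KO; SD, n = 3 libraries a group), a difference of 0.32 (SE 0.27; limma p = 0.268, adjusted p = 0.891; exact permutation p = 0.4). *Gfm1* was the one member that reached an unadjusted limma p under 0.05 in any alternative. That was without KO 1, where the difference was 0.61 and the limma adjusted p 1.00, whereas without KO 2 the difference was 0.14.

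Release and recycling close the round. *Mtrf1* (chr14:79397772-79423587, plus strand, 11 exons), a peptide release factor, was the scarcest of the 10 transcripts. Its values were 2.28, 1.56 and 4.397 FPKM in the WT libraries, against 2.86, 2.49 and 2.92 FPKM in the KO libraries. The lowest and the highest library were both WT libraries, and all KO libraries lay between them. The means were nearly equal at 2.75 ± 1.47 and 2.76 ± 0.231 FPKM (SD, n = 3 libraries a group), with a difference of 0.073 and an interval from −0.68 to 0.82 (exact permutation p = 1.0). It was −0.17 without WT 2, 0.37 without WT 3 and −0.017 with the trend on GC content removed. *Mtrf1* rested on an estimated 25 to 90 fragments per library, the fewest of the group, so its values carry a counting error of about 15.5%.

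*Mrrf* (chr2:36136389-36190647, plus strand, 7 exons) encodes the ribosome recycling factor, which splits the subunits after release. It varied least of the 10 genes, with 8.57, 9.99 and 9.23 FPKM in the WT libraries, against 9.37, 8.43 and 10.4 FPKM in the KO libraries. The difference was 0.016 with an interval from −0.44 to 0.48 (exact permutation p = 0.8), and it ran from −0.051 without KO 3 to 0.083 without KO 2. *Gfm2* (chr13:97137937-97181195, plus strand, 21 exons) encodes EF-G2, which acts together with this factor in recycling rather than in elongation. It had 6.52, 4.21 and 4.46 FPKM in the WT libraries, against 7.41, 7.66 and 4.73 FPKM in the KO libraries. KO 1 and KO 2 were the highest libraries, and WT 1 lay above KO 3. The difference was 0.32 (SE 0.27; limma p = 0.262, adjusted p = 0.889; exact permutation p = 0.2), the smallest limma p of the group, and it was 0.51 without KO 3 and 0.49 without WT 1.

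*Oxa1l* (chr14:54360834-54369673, plus strand, 10 exons) encodes the insertase that receives chains from the ribosome at the inner membrane, the step nearest to CRIF1. It had 17.7, 18.5 and 12.6 FPKM in the WT libraries, against 16.5, 17.0 and 23.7 FPKM in the KO libraries. The highest library was KO 3 and the lowest WT 3, and the other 4 lay close together. The means were 16.2 ± 3.18 (WT) and 19.1 ± 4.0 FPKM (KO; SD, n = 3 libraries a group), with a difference of 0.22 and an interval from −0.30 to 0.74 (exact permutation p = 0.6). Leaving out WT 3 brought the difference to 0.057, and leaving out KO 3 to 0.062.

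*Lrpprc* (chr17:84705247-84790789, minus strand, 38 exons) encodes an RNA-binding protein that keeps mitochondrial messengers stable together with SLIRP. Its level was 10.9, 14.9 and 17.7 FPKM in the WT libraries, against 16.7, 11.6 and 23.4 FPKM in the KO libraries. High and low libraries were found in both groups, with WT 1 the lowest and KO 3 the highest, more than 2-fold apart (ratio 2.15). The difference was 0.21 (interval −0.42 to 0.83; exact permutation p = 0.6). It rested on single libraries, at −0.028 without KO 3, 0.029 without WT 1, 0.36 without WT 3 and 0.45 without KO 2.

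**Figure D2:**
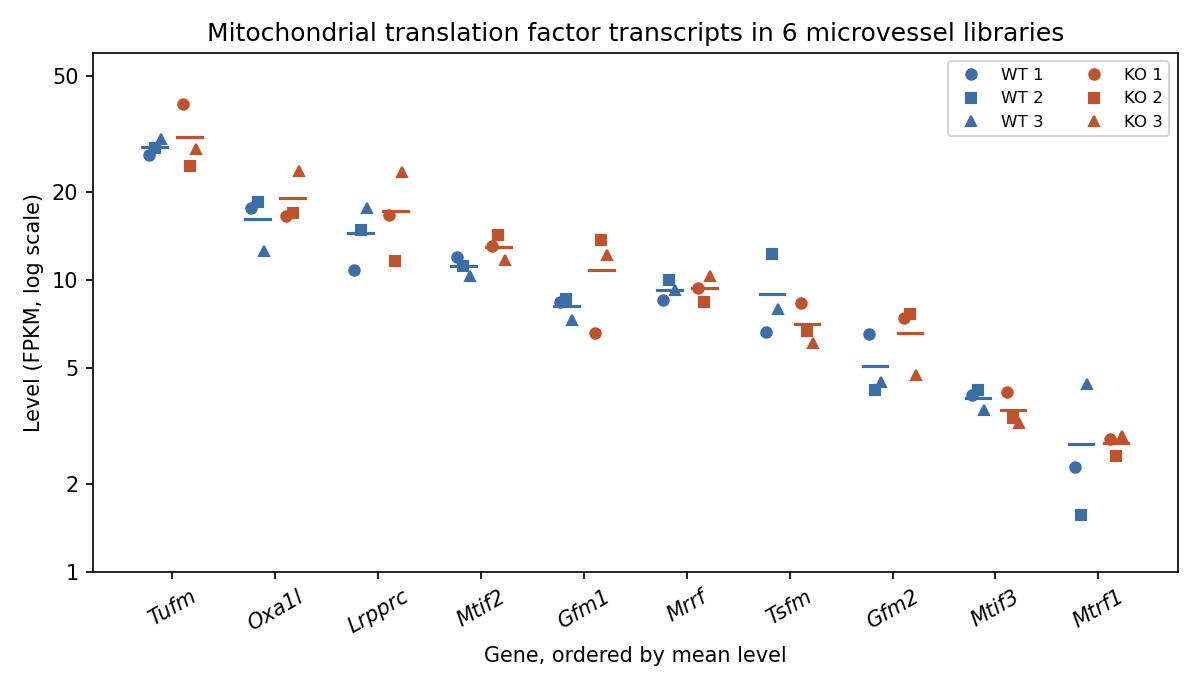
Level of each of the 10 genes in each library (FPKM, log scale), with WT libraries in blue, KO libraries in orange, symbols for the replicate number and short lines for group means. *Tufm* lies highest and *Mtrf1* lowest, and WT and KO symbols overlap for each gene.

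FPKM is per length, so the levels of the genes can be set side by side. By mean FPKM over the 6 libraries the order was *Tufm* (29.7), *Oxa1l* (17.7), *Lrpprc* (15.8), *Mtif2* (12.1), *Gfm1* (9.48), *Mrrf* (9.33), *Tsfm* (8.01), *Gfm2* (5.83), *Mtif3* (3.76) and *Mtrf1* (2.75). *Tufm* exceeded *Oxa1l* in 6 of 6 libraries, and *Gfm2* exceeded *Mtif3* in 6 of 6. The neighbours *Oxa1l* and *Lrpprc* kept their order in 4 of 6 libraries, *Lrpprc* and *Mtif2* in 4 of 6, and *Gfm1* and *Mrrf* in 2 of 6, so those pairs did not differ beyond their spread. Within the genotypes the ranks were alike except in the middle, where *Gfm1* ranked 7 in WT libraries and 5 in KO libraries. Among all genes tested, *Tufm* stood between the 80.0th and 86.2th percentile of a library and *Mtrf1* between the 8.68th and 27.2th.

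The spread of the genes over the libraries was larger than counting error alone for most of them. The coefficient of variation over the 6 libraries was 34.3% for *Mtrf1*, 29.9% for *Gfm1*, 28.9% for *Lrpprc* and 28.5% for *Tsfm*, with estimated counting errors of 15.5%, 5.43%, 4.08% and 10.5%. For *Mrrf* it was 8.15%, close to its counting error of 6.70%. These counting errors use annotated transcript lengths and cover counting only.

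The genes did not form one profile across the libraries. Of the 45 pairs of members, 18 had a positive Pearson correlation of log2(FPKM + 1) over the 6 libraries, and the median was −0.059. The most alike were *Mtif2* and *Gfm2* (r = 0.897) and *Mrrf* and *Lrpprc* (r = 0.851), and the least alike *Mtif3* and *Gfm1* (r = −0.76) and *Tufm* and *Gfm1* (r = −0.756). Pairs that shared a promoter motif had values of −0.059 for *Gfm2* and *Oxa1l* and −0.51 for *Mrrf* and *Mtif2*. These are descriptions over 6 points that share the libraries with their depth and composition. In KO 1, 8 of the 10 genes lay above their own mean, against 3 in KO 2, 5 in KO 3 and 3, 4 and 4 in WT 1, WT 2 and WT 3. The mean of the members' standardized levels followed the log2 of the summed choroid plexus markers over the 6 libraries (r = 0.84). It ran against that of the astrocyte markers (r = −0.862). These were the highest and the lowest r among the marker lists. Between them lay 0.094 for the endothelial, 0.44 for the smooth muscle and −0.59 for the neuron list. The part of these cell types in the members' levels was not tested. Outside the group, *Espl1* (separase, r = 0.991), *Ufc1* (the conjugating enzyme for UFM1, r = 0.986) and *Gm1661* (r = 0.986) had the profiles most like that mean over 6 libraries, among 134 genes with r above 0.9.

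**Figure D3:**
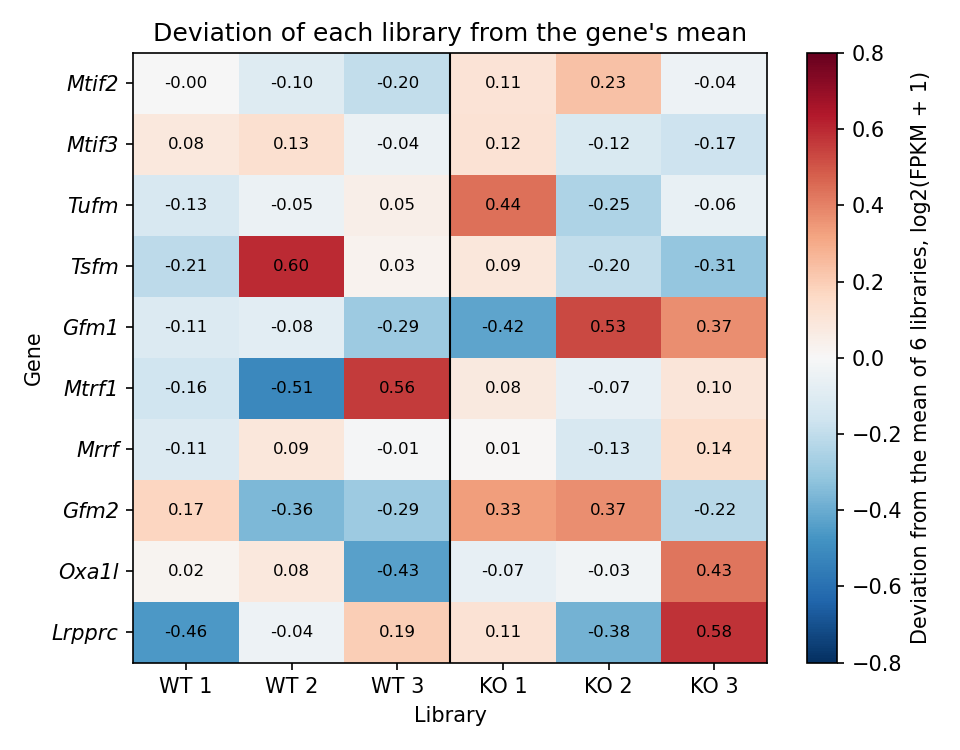
Deviation of each library from the gene's mean over 6 libraries, in log2(FPKM + 1), with genes in rows and libraries in columns (WT left of the line, KO right). Each column mixes positive and negative values, for example 0.53 for *Gfm1* and −0.38 for *Lrpprc* in KO 2.

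Transcripts of proteins that work in pairs, chosen after values were seen, were compared within a library, which removes any factor common to a library. The ratio of *Tufm* to its exchange factor *Tsfm* was 4.04, 2.30 and 3.80 in the WT libraries, against 4.80, 3.67 and 4.61 in the KO libraries, and the groups overlapped. That of *Gfm1* to *Gfm2*, the elongation against the recycling form of EF-G, ran from 0.891 in KO 1 to 2.58 in KO 3, with all WT libraries between them. The ratio of *Mtif2* to *Mtif3* was 2.98, 2.66 and 2.88 in the WT libraries, against 3.16, 4.26 and 3.62 in the KO libraries. All KO libraries lay above all WT libraries here, by 0.36 on the log2 scale, with SDs of 0.085 in WT libraries and 0.22 in KO libraries. The genes differ in GC content (44.4% and 52.7%) and transcript length (2741 and 4927 bases). Their single differences were 0.20 and −0.11 with no trend removed. They were 0.091 and −0.073 with the GC trend removed, and 0.20 and −0.074 with the length trend removed. With both removed, a setting chosen after seeing the data, they were 0.084 and −0.010. The ratio itself was not refitted, and a part of GC content or length in it was not tested. Over the 6 ratios examined this one had an exact permutation p of 0.1, and 0.6 after adjustment. The value of 0.1 is the smallest that this number of libraries can give, so no ratio could have passed, whatever its values. The exact test therefore cannot decide whether the ratio of *Mtif2* to *Mtif3* differs between the groups.

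The other 3 ratios paired a member with a relative outside the group. *Slirp*, the partner of *Lrpprc*, had 71.2, 77.0 and 83.2 FPKM in the WT libraries, against 158, 70.9 and 99.2 FPKM in the KO libraries. *Lrpprc* stood at 0.105 to 0.236 of *Slirp*, and both ends of that range were KO libraries. *Mtrf1l*, the paralogue of *Mtrf1*, had 2.76, 4.68 and 1.42 FPKM in the WT libraries, against 3.25, 2.77 and 2.67 FPKM in the KO libraries. In WT 3 *Mtrf1* was high and *Mtrf1l* low, with a ratio of 3.09, and in WT 2 the reverse held, with 0.334. *Oxa1l* exceeded its relative *Cox18*, the insertase for cytochrome oxidase subunit 2, in all libraries, by 1.69-fold in KO 1 to 4.82-fold in KO 2. For these 3 ratios the groups overlapped, with exact permutation p of 0.7 to 1.0.

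**Figure D4:**
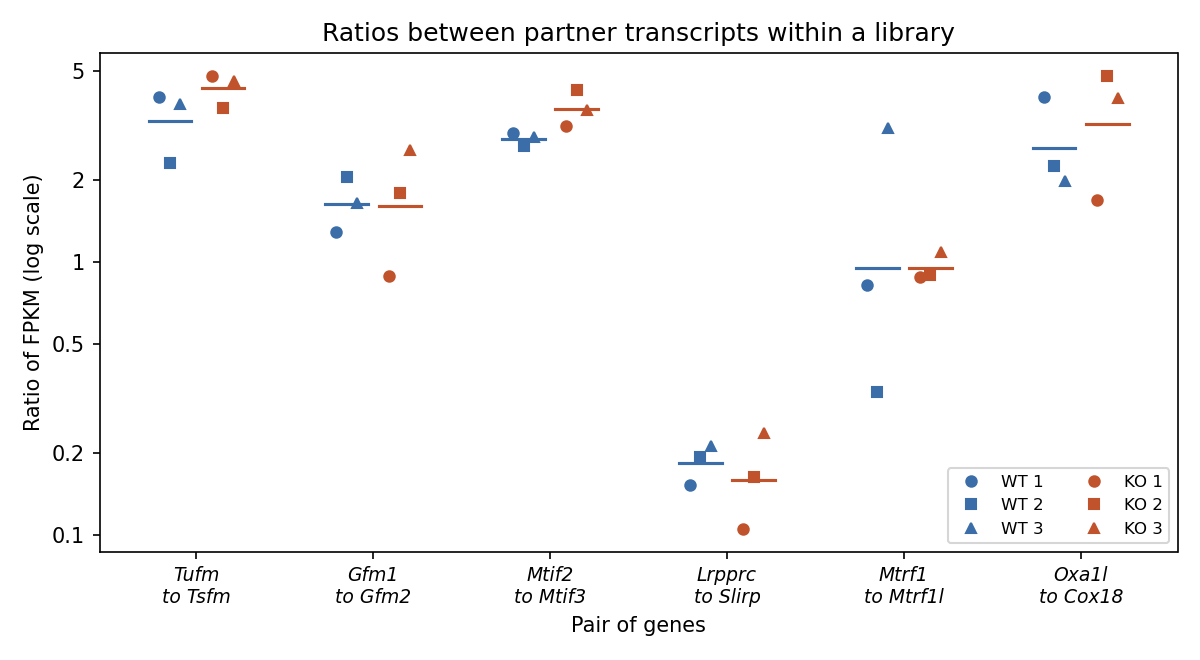
Ratio of FPKM between 6 pairs of partner or related transcripts within each library (log scale), with WT libraries in blue, KO libraries in orange and lines for geometric means. Only for *Mtif2* to *Mtif3*, among these 6 pairs, do all KO libraries (3.16 to 4.26) lie above all WT libraries (2.66 to 2.98). The pairs were chosen after values were seen. The groups did not overlap for 11.1% of single genes tested, and the share over other gene pairs was not examined.

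The rest of the mitochondrial translation pathway was examined by lists. Of 16 tested relatives in initiation, release, rescue and ribosome assembly, 0 had an unadjusted limma p under 0.05 in either direction, where 5.88% of all genes passed, and the median difference was 0.11. *Nsun4*, a methyltransferase of the small subunit rRNA, had 1.72 ± 0.616 (WT) and 2.90 ± 0.449 FPKM (KO; SD, n = 3 libraries a group), a difference of 0.54 (exact permutation p = 0.1), and its groups did not overlap. The groups of *Ndufaf7*, a methyltransferase for complex I assembly, also did not overlap, with a difference of 0.32; this gene was named after its values were seen. These 2 of 16, both higher in KO, stand beside 5.37% of all genes. *Guf1*, a back-translocase of the mitochondrial ribosome, differed by 0.42 with 13.5 FPKM in KO 2 and 4.51 to 6.07 FPKM elsewhere. The most abundant of the list was *Ict1*, a peptidyl-tRNA hydrolase of the large subunit (51.1 FPKM on average), followed by the assembly factor *Rbfa* and the peptide deformylase *Pdf*, level at 17.96 FPKM each.

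Of the 22 tested aminoacyl-tRNA synthetases and amidotransferase subunits, which charge mitochondrial tRNAs, 0 had an unadjusted limma p under 0.05 (5.88% of all genes), and the median difference was 0.038. *Lars2*, the leucyl enzyme, was listed at 7036 to 14380 FPKM, and the next gene by level was *Gars*, the glycyl enzyme, with a mean of 52.9 FPKM. Whether all reads listed for *Lars2* came from its messenger was not tested. The largest differences were those of *Sars2* (0.38) and *Fars2* (0.36), the seryl and phenylalanyl enzymes.

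Among 18 tested genes for insertion and for cytochrome oxidase assembly, 1 was higher and 1 lower at an unadjusted limma p under 0.05, where 2.77% of all genes were higher and 3.11% lower, and 0 passed adjustment. *Coa3*, which holds newly made cytochrome oxidase subunit 1, had 28.5, 22.2 and 32.6 FPKM in the WT libraries, against 42.4, 31.5 and 50.7 FPKM in the KO libraries, with KO 2 below WT 3. Its difference was 0.56 (limma p = 0.0405, adjusted p = 0.841; exact permutation p = 0.2). *Surf1*, a cytochrome oxidase assembly factor, had 28.4, 29.2 and 23.9 FPKM in the WT libraries, against 18.6, 12.1 and 22.3 FPKM in the KO libraries, all under the WT libraries, and 5.7% of all genes tested were lower without overlap. Its difference was −0.63 (limma p = 0.0274, adjusted p = 0.841; exact permutation p = 0.1). The copper chaperone *Cox17* (68.0 FPKM) and *Cox20* (51.7 FPKM) were the most abundant of this list.

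Of 28 tested genes for mitochondrial RNA synthesis, processing and stability, 22 had an estimate above 0 and 6 below, with a median of 0.22, where 49.2% of all genes were above 0. At an unadjusted limma p under 0.05 the count was 0 of 28, against 5.88% of all genes. The summed level of this list was 351 to 383 FPKM in WT libraries and 520, 366 and 454 FPKM in the KO libraries, so it was highest in the libraries that were high in choroid plexus markers. A sum gives abundant genes the most weight, here *Slirp*, with 71.2 to 83.2 FPKM in WT libraries and 158, 70.9 and 99.2 FPKM in the KO libraries. A link with these markers was not tested. *Tefm*, an elongation factor of the mitochondrial RNA polymerase, was 2.01, 1.82 and 3.86 FPKM in the WT libraries, against 4.08, 4.59 and 4.04 FPKM in the KO libraries, without overlap (difference 0.60, exact permutation p = 0.1). *Mterf1a*, a transcription terminator, differed by 0.56 and ran from a listed 0 in WT 1 to 2.58 FPKM in WT 3. *Slirp* and *Hsd17b10*, a subunit of the enzyme that cuts the 5′ ends of mitochondrial tRNAs, were the most abundant, at 93.3 and 65.5 FPKM. Groups that did not overlap were found for 3 of these 28 genes, *Tefm*, *Ptcd2* (0.46) and *Fastk* (0.23), the last 2 named after their values were seen. All 3 were higher in KO, and 5.37% of all genes tested were of that kind. The messengers encoded by mitochondrial DNA itself were not analysed here.

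Several of the genes share their locus with a gene on the other strand. In the GENCODE M21 annotation 7 of the 10 have an overlapping gene on the opposite strand, and for 6 of them that gene is among the symbols measured. *Mtif3* overlaps *Gtf3a* by 4042 bases, *Gfm1* overlaps *Lxn* by 5929 and *Tsfm* overlaps *Avil* by 9423. *Avil* was at most 0.509 FPKM, whereas *Lxn* had 17.3 to 43.6 FPKM. The library kit marks strand, but whether the counting used strand is not given in the sources used here, so reads of these partners cannot be told apart with certainty.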

How the data were processed

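Total RNA was taken up in TRIzol, and strand-marking libraries were sequenced as paired ends. The authors trimmed the reads, mapped them with TopHat (build mm10, per the labels) and deposited 1 FPKM value per gene symbol. The FPKM estimator is not given in the sources used here.

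Groups follow the titles. Differences were fitted on log2(FPKM + 1) with limma 3.58.1 (R 4.3.3, trended variance) where the mean reached 1 FPKM (14247 genes), a scale that understates the change of low genes. Exact two-sided permutation tests used SciPy 1.17.1. Relative depth was taken from the most common log2 ratio between libraries for values under 0.3 FPKM, and 14 of 15 library pairs matched within 0.02. The absolute depth came from values under 1 FPKM of 4690 genes with a single transcript. It assumes that the most common value there stood for a single fragment. At that depth 3 fragments on 1 kb are 0.258 to 0.472 FPKM. Length, GC content and exons are those of the longest coding transcript in GENCODE M21 (22827 symbols matched, 356 not). In data simulated for KO against WT (14247 genes, 200 of them changed), 161 genes with a 2-fold change reached an unadjusted p under 0.05, of which 0 passed adjustment. A 4-fold change gave 161 after adjustment.

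The members and lists were chosen with earlier results of these data known. The names given are all members, *Gadd45gip1*, 3 relatives, list genes at an unadjusted p under 0.05, the 2 most abundant and 2 most different per list, and the 3 nearest profiles. Outside this rule, *Pdf*, *Ndufaf7*, *Ptcd2*, *Fastk*, *Cldn5*, *Cdh5* and the overlapping genes were named after their values were seen.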

Additional observations from a re-analysis of the deposited data

How the results depend on the processing

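The members were refitted under 18 alternatives: no filter, a filter at 5 FPKM, a pseudocount of 0.1, 3 scalings, no trended variance, a replicate block, trends on GC content or length removed (the former also with the block), both trends removed (chosen after seeing the data), and each library left out. The adjusted p passed 0.05 in 0 of 178 fits, 169 kept their direction, and 6 of the 10 genes never turned. The filter at 5 FPKM left out *Mtif3* and *Mtrf1*. *Mtrf1* was −0.017 with the GC trend removed, −0.017 with the block as well, and −0.062 with both trends removed, where *Mrrf* was −0.0064. With single libraries left out, *Mtrf1* ran from −0.17 (without WT 2) to 0.37, *Mrrf* from −0.051 (without KO 3; −0.03 without WT 1) to 0.083, *Tufm* from −0.11 (without KO 1) to 0.23, and *Lrpprc* from −0.028 (without KO 3) to 0.45. In these fits the group's median ran from 0.036 (without WT 1; 0.05 without KO 3) to 0.14, and its count at an unadjusted limma p under 0.05 from 0 to 1 (*Gfm1*, without KO 1). The median was 0.17 with the pseudocount of 0.1 and 0.21 for the 8 genes left by the filter at 5 FPKM. *Gadd45gip1* ran from −0.86 to −0.62 with single libraries left out. The cause was not tested. Same-numbered libraries deviated together at r = 0.0375, 0.0267 and 0.00159, and libraries with unlike numbers at −0.0733 to 0.0462. These values cannot tell whether same-numbered libraries shared a batch or preparation. The column headers carry other numbers (4, 6 and 8 for WT, 1, 2 and 6 for KO). With the replicate block the median stayed 0.14 and 0 members passed. Depth limits *Mtrf1* most.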
